A study of Mus musculus with 10 samples.

Results

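The 9 genes described here encode components and receptors of the complement system: the 3 chains of C1q (C1qa, C1qb and C1qc), C3, C4b, factor B (Cfb), properdin (Cfp), and the anaphylatoxin receptors C3ar1 and C5ar1. They were taken by name, and all 9 were among the 28585 genes of the deposited count table and among the 15151 genes with enough counts to be tested. Complement is a cascade of plasma and tissue proteins that tags cells and debris for uptake. C1q starts the classical branch and leads to cleavage of C4 and C2, factor B and properdin drive the alternative branch, and both branches meet at C3. In the brain, C1q comes mainly from microglia, and cells that carry C3a and C5a receptors are recruited or activated by the fragments released from C3 and C5.

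Each library was made from the RNA of reporter-positive cells taken by flow sorting from the injured side of a mouse brain after ischemia. In the 4 transgenic CD11c libraries (replicates 23, 24, 26 and 27) the cells were CD11c-eYFP+ cells of female Tg(Itgax-Venus)1Mnz mice, 13 to 14 weeks old, in which a yellow fluorescent protein is driven by the CD11c gene Itgax. In the 3 parabiotic CD11c libraries (replicates 3, 11 and 15) the cells carried the same reporter but were sorted from C57BL/6 mice, 15 to 16 weeks old, that shared their circulation with a Tg(Itgax-Venus)1Mnz partner. The mice of replicates 3 and 11 are given as female, and replicate 15 was placed in this group by its title, since its own labels (strain C57BL/6, genotype Tg(Itgax-Venus)1Mnz) name neither a cell type nor parabiosis. In the 3 microglia libraries (replicates 39, 40 and 41) the cells were CX3CR1+ microglia of female CX3CR1CreERT2:Rosa26-tdT mice, 13 to 14 weeks old, whose red reporter depends on a Cre recombinase made by cells that express Cx3cr1. The sort in each group thus rested on 1 reporter and no antibody staining, all groups shared the ischemic tissue, and no uninjured brain was compared.

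Library totals ranged from 31534625 to 41730688 counts. Cells labelled microglia had the markers of that type, while transgenic CD11c libraries held 8619 to 20557 CPM of a list of 10 microglial markers, parabiotic CD11c libraries 3985 to 5608 CPM and microglia 28884 to 29835 CPM (counts scaled to library size with TMM factors, summed over the list). A list of 10 dendritic cell markers summed to 4148 to 17111 CPM in transgenic, 27184 to 34763 CPM in parabiotic and 229 to 348 CPM in microglia libraries. Transgenic replicates 26 and 27 had library numbers apart from those of the other 8 libraries and the lowest dendritic sums among the CD11c libraries. Neutrophil markers stood out in parabiotic replicate 11 (Ngp at 189 CPM, against 27.1 CPM in replicate 15 and 0.316 CPM in replicate 3).

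The 9 genes together took 0.985% to 1.60% of all counts in transgenic CD11c libraries, 0.703% to 0.927% in parabiotic CD11c libraries and 1.60% to 1.74% in microglia. The C1q chains made up most of this, with 85.9% to 89.2% of the members' counts in transgenic, 75.0% to 81.7% in parabiotic and 88.1% to 89.2% in microglia libraries. Levels of different genes were compared only per length, as TPM, which divides counts by the exon length of each gene. On that scale C1qb ranked 7th to 10th among all genes in transgenic libraries, 12th to 15th in parabiotic libraries and 2nd to 4th in microglia. In parabiotic CD11c libraries Cfp, at 639 ± 188 TPM, lay beside C3ar1 (704 ± 35.7 TPM), and C4b was at 13.2 ± 0.661 TPM (SD, n = 3). C3ar1 was the next most abundant member after C1q in microglia, at 755 ± 60.2 TPM (SD, n = 3), ahead of C5ar1 at 687 ± 76.0 TPM. Their ranges overlapped between libraries, but C3ar1 exceeded C5ar1 1.04- to 1.16-fold within each microglia library. Below them in microglia came C4b (183 ± 32.1 TPM), C3 (33.5 ± 11.8 TPM), Cfp (20.5 ± 8.84 TPM) and Cfb (1.55 ± 0.118 TPM). Cfp overlapped in range with C3, but its ratio to C3 within each microglia library was 0.315 to 0.936.

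**Figure D1:**
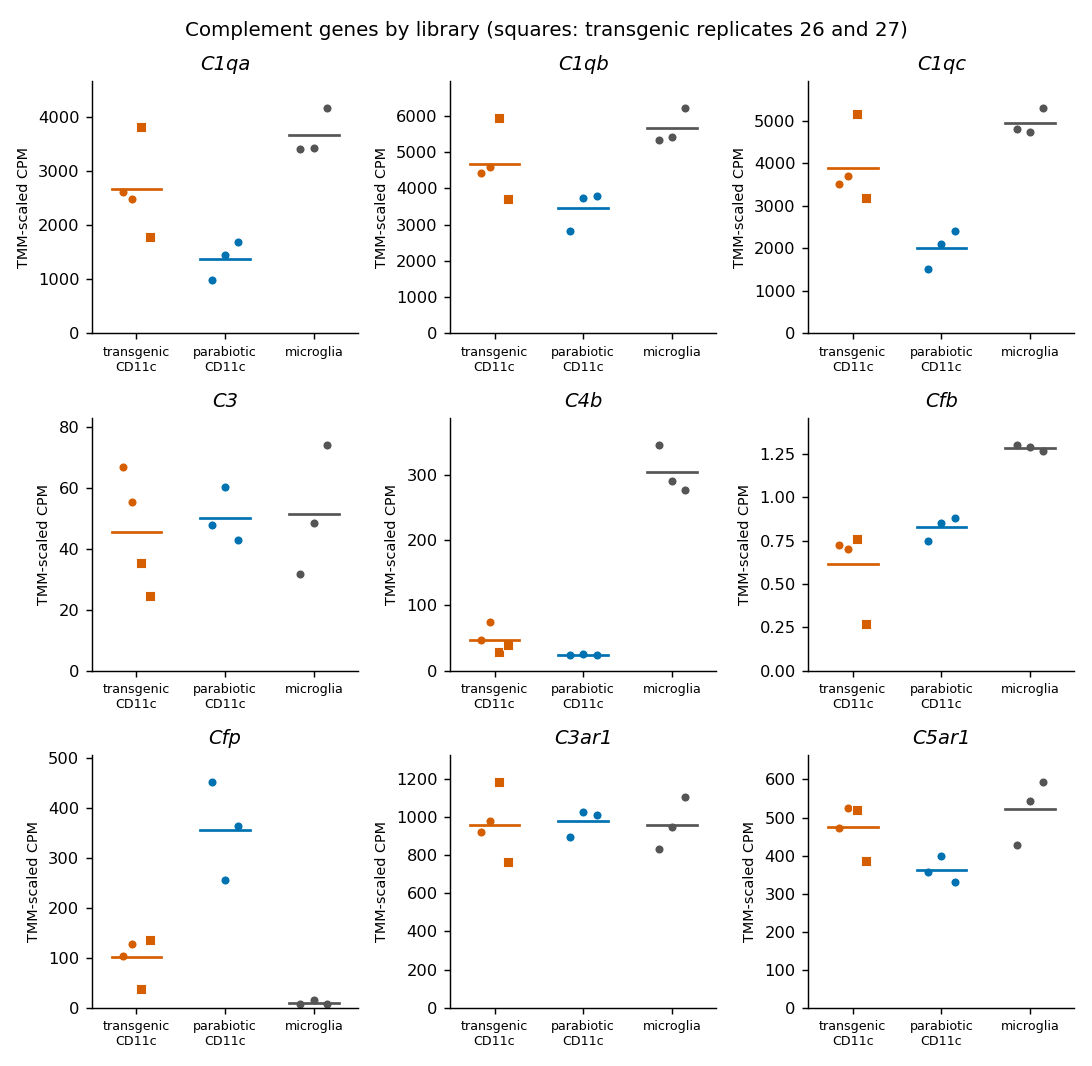
TMM-scaled CPM of each complement gene (vertical axes, linear and starting at 0) in every library of the 4 transgenic CD11c, 3 parabiotic CD11c and 3 microglia samples. Points are libraries, squares are transgenic replicates 26 and 27, and bars are group means. The C1q chains have their lowest means in parabiotic cells, where C1qb overlaps with transgenic replicate 27. C4b stands high in microglia alone, Cfp is highest in parabiotic cells, and C3 and C3ar1 overlap in all groups.

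Differences were tested with edgeR's quasi-likelihood test over all 15151 genes, with Benjamini-Hochberg adjustment and a threshold of 0.05, and are given as log2 fold changes ± SE. In parabiotic CD11c cells against microglia, 5 of the 9 genes were lower (C1qa, C1qb, C1qc, C4b and C5ar1), 1 was higher (Cfp) and 3 were not called (C3, Cfb and C3ar1). Of all tested genes, 35.3% were called in that comparison, 17.9% lower and 17.4% higher. The median log2 fold change was -0.64 over the 9 genes and -0.02 over all genes tested. In transgenic CD11c cells against microglia, C4b was lower, Cfp was higher and 7 genes were not called, where 13.7% of all genes were called, 4.79% lower and 8.88% higher. The medians were -0.28 over the 9 genes and 0.02 over all genes. In transgenic against parabiotic CD11c cells, the called genes were C1qa, C1qc and C4b, all higher, and Cfp, which was lower, while 5 genes missed the threshold. Of all genes 10.1% were called there, 7.63% higher and 2.42% lower. The medians were 0.39 and 0.04. Leaving out parabiotic replicate 15, whose labels are incomplete, gave 4 lower and 1 higher in the first comparison, 1 of each in the second, and 1 of each in the third. Without parabiotic replicate 3 or microglia replicate 41 the first comparison had 3 lower, and without parabiotic replicate 3 or 11 the third had 0 higher.

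The libraries of the compared groups did not overlap for 7 of the 9 genes in the first comparison (60.3% of all tested genes), 3 of 9 in the second (30.3%) and 4 of 9 in the third (22.7%). The comparisons share libraries, so they are not independent of each other, and p-values measure the spread between these libraries, which no label ties to separate animals.

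**Figure D2:**
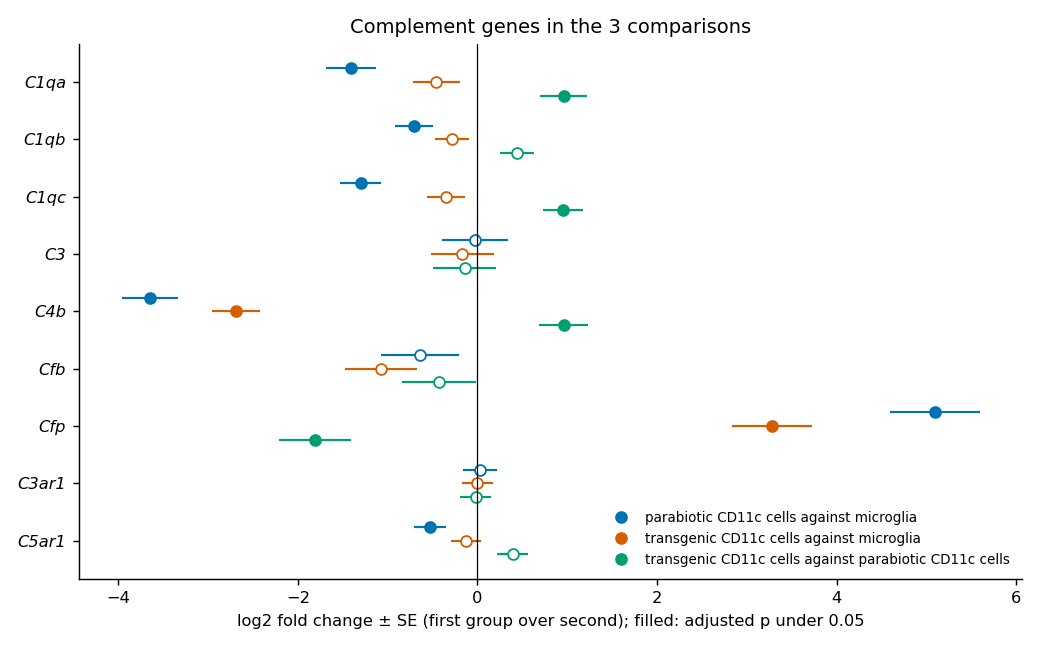
Log2 fold change ± SE of each complement gene (horizontal axis) in the 3 comparisons, first-named group over second, from the edgeR fit of all 10 libraries. Filled circles passed an adjusted p of 0.05 and open circles did not. C4b and Cfp moved furthest, C4b to -3.65 and Cfp to 5.09 in parabiotic cells against microglia, while the circles of C3 and C3ar1 lie near 0 in all 3 comparisons.

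The C1q chains are encoded side by side on chromosome 4 of GRCm38, on the minus strand (C1qb at 136880129 to 136886187, C1qc at 136889804 to 136893065 and C1qa at 136895917 to 136898803). Each C1q molecule is assembled from equal numbers of A, B and C chains. C1qa reached 2612, 2473, 3804 and 1773 CPM in transgenic replicates 23, 24, 26 and 27, 987, 1450.0 and 1686 CPM in parabiotic replicates 3, 11 and 15, and 3401, 3424 and 4159 CPM in microglia replicates 39, 40 and 41. Every parabiotic library lay below every transgenic and every microglia library, while transgenic replicate 26 lay within the microglia range. The difference was -1.41 ± 0.28 in parabiotic cells against microglia (adjusted p = 0.00262), or 37.5% of the microglia level. Against microglia, transgenic cells stood at -0.46 ± 0.26 (95% interval -1.02 to 0.11, adjusted p = 0.239), and against parabiotic cells at 0.96 ± 0.26 (adjusted p = 0.0428). The last call lay close to the threshold. It was lost in 9 of the 10 fits that left out a single library, with only transgenic replicate 27 dispensable. Among the 9 were the fits without any one microglia library, although microglia are not part of that comparison. The fit of the 2 CD11c groups alone gave adjusted p = 0.101. With a term that sets apart transgenic replicates 26 and 27, whose library numbers differ, the difference was 0.89 with adjusted p = 0.0936. That term leaves replicates 23 and 24 alone to set the transgenic mean.

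C1qc behaved alike. It had 3522, 3693, 5169.8 and 3189.9 CPM in transgenic replicates 23, 24, 26 and 27, against 1514, 2110.0 and 2403 CPM in parabiotic replicates 3, 11 and 15, and 4819, 4749 and 5300.4 CPM in microglia replicates 39, 40 and 41. The parabiotic libraries again lay apart from both other groups, and replicate 26 was the transgenic library within the microglia range. C1qc was lower in parabiotic cells than in microglia (-1.30 ± 0.23, adjusted p = 0.0012) and higher in transgenic than in parabiotic cells (0.95 ± 0.22, adjusted p = 0.0166), and stood at -0.35 ± 0.21 in transgenic cells against microglia (95% interval -0.81 to 0.11, adjusted p = 0.271). Without parabiotic replicate 3 or 11 the call between the CD11c groups was lost (adjusted p = 0.0858 and 0.0623), as it was with only those groups in the fit (adjusted p = 0.0518).

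C1qb differed less. Its levels were 4434, 4574, 5945 and 3698 CPM in transgenic replicates 23, 24, 26 and 27, 2813, 3726 and 3797 CPM in parabiotic replicates 3, 11 and 15, and 5327, 5427 and 6211 CPM in microglia replicates 39, 40 and 41. Parabiotic libraries lay below all microglia libraries but overlapped with transgenic replicate 27. C1qb was lower in parabiotic cells than in microglia (-0.71 ± 0.21, adjusted p = 0.0198), a call that ended without microglia replicate 41 (adjusted p = 0.0653) or parabiotic replicate 3 (adjusted p = 0.0884). In transgenic cells it stood at -0.28 ± 0.19 against microglia (95% interval -0.70 to 0.14, adjusted p = 0.337) and at 0.44 ± 0.19 against parabiotic cells (0.01 to 0.86, adjusted p = 0.199).

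The balance of C1qa and C1qc to C1qb set the parabiotic libraries apart, while transgenic and microglia libraries overlapped in it. Per length, the ratio of C1qa to C1qb transcripts within a library was 0.616, 0.566, 0.669 and 0.501 in transgenic replicates 23, 24, 26 and 27, against 0.367, 0.407 and 0.464 in parabiotic replicates 3, 11 and 15, and 0.668, 0.660 and 0.701 in microglia replicates 39, 40 and 41. All 3 parabiotic ratios lay below those of every other library. The ratio of C1qc to C1qb ran the same way, at 0.448 to 0.490 in transgenic, 0.303 to 0.357 in parabiotic and 0.481 to 0.510 in microglia libraries, whereas that of C1qa to C1qc, at 1.03 to 1.38, 1.21 to 1.30 and 1.31 to 1.46, overlapped between the transgenic group and each of the others. No test was run on these ratios. The summed C1q level was 27363 ± 5010 TPM in transgenic (n = 4), 17107 ± 2833 TPM in parabiotic (n = 3) and 38298 ± 1141 TPM in microglia libraries (SD, n = 3).

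C1q transcripts and microglial markers did not differ from their microglia levels to the same extent. In parabiotic cells C1qa, C1qb and C1qc stood at 37.5%, 60.9% and 40.5% of their microglia means. Of 9 microglial markers, Sall1, a transcription factor of microglial identity, was lowest at 0.0694%. Csf1r, the receptor of colony-stimulating factor that microglia need to survive, was highest at 19.4%, and the median was 4.02%. C1q therefore stood above each of these markers relative to microglia. In transgenic cells the C1q chains stood at 72.8% to 82.5% and the markers at 21.8% to 78.6% (median 34.3%). These ranges overlapped, and Sall1 stood at 26.1 to 165 CPM, against 318 to 467 CPM in microglia. All 10 markers of the microglial list were called higher in transgenic than in parabiotic cells, the same direction as C1qa and C1qc, beside 7.63% of all genes. The part of microglia in the difference between the CD11c groups was not tested. In bulk RNA of a sorted population, fewer cells of a type and less RNA per cell cannot be told apart, which holds for all levels given here.

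**Figure D3:**
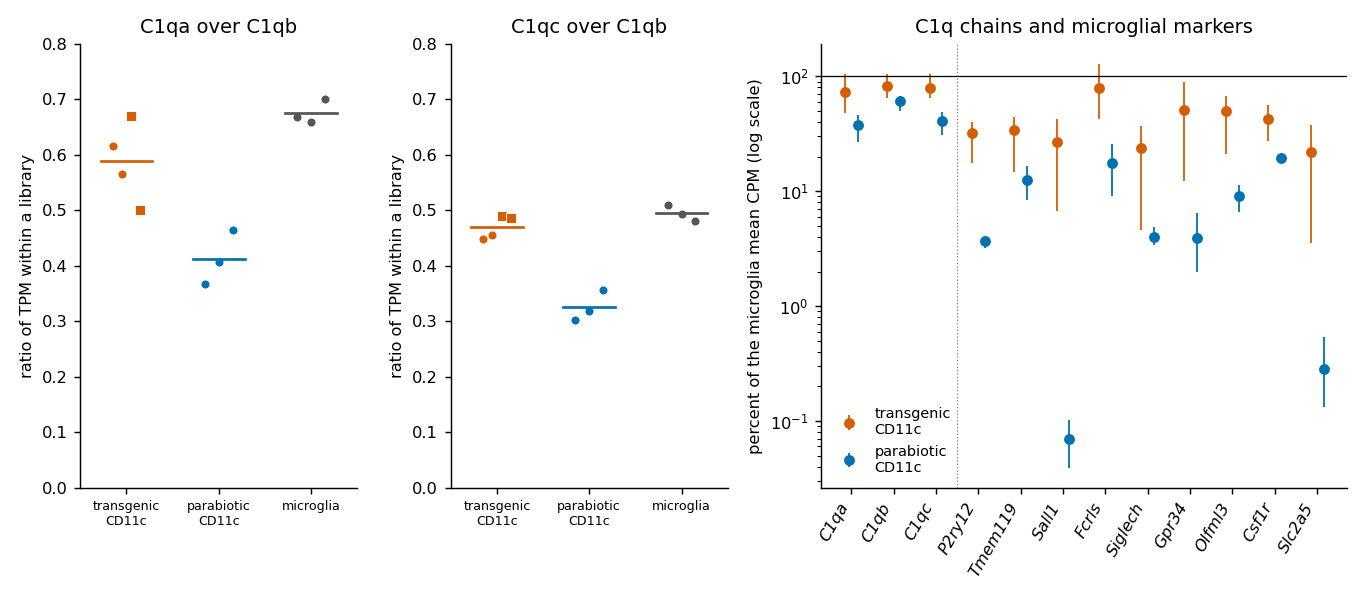
Left and middle, ratio of C1qa and of C1qc to C1qb TPM within each library (linear axes from 0; points are libraries, squares transgenic replicates 26 and 27, bars group means). Right, C1q chains and 9 microglial markers in transgenic and parabiotic CD11c cells as percent of the microglia mean CPM on a log axis, with the mean and the range over libraries. The parabiotic ratios, 0.367 to 0.464 and 0.303 to 0.357, lie below all others, and in parabiotic cells the C1q chains lie above every microglial marker.

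Promoter windows are shown for a pair of C1q genes whose mean levels were both lowest in parabiotic cells (C1qb with overlap), and for Cfp, which was highest there. They span 250 bases before to 50 bases after the transcription start on the gene's strand, and come from RefSeq on GRCm38.p6, in which 6 of the 9 genes were matched by symbol. C1qb is the window chr4:136886151-136886450, C1qc is chr4:136892865-136893164 and Cfp is chrX:20931506-20931805, all on the minus strand. Capitals mark GAGGAA or its reverse complement, the core of the binding motif of PU.1, a transcription factor of the myeloid lineage.
C1qb: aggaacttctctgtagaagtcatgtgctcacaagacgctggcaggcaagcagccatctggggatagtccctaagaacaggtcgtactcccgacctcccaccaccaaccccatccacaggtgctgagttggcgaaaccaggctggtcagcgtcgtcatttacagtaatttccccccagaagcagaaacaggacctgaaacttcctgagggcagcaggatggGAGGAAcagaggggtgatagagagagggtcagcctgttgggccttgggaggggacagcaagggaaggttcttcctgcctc
C1qc: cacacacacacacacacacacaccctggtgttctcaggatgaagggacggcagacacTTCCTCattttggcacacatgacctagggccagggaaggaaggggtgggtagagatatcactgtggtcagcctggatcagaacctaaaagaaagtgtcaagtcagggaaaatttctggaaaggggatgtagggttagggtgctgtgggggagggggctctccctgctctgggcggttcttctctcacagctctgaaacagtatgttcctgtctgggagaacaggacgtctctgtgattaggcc
Cfp: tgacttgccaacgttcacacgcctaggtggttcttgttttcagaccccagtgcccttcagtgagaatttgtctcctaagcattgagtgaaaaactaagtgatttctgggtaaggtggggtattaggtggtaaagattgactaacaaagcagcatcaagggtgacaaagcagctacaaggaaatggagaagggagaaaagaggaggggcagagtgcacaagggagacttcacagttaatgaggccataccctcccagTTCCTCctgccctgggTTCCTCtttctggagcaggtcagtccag

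The PU.1 core occurred once in the C1qb window, 30 bases before the start, and once in the C1qc window, 193 bases before it. In the Cfp window it occurred at 2 places, 7 and 23 bases into the transcript. These positions count from the RefSeq starts, which for C1qb and C1qc differ from the GENCODE coordinates given above. For C1qc the GENCODE start, 136893065, lies within the window and nearer to the motif. The windows of C3, C3ar1 and C5ar1 did not contain these letters. Of the 32851 promoter windows of the same length that were searched, which did not cover every chromosome, 28.3% held the motif on either strand, so its presence is common. The other motifs were searched on both strands and are given with their share of the same searched windows. AP-1 (TGANTCA, 7.81%) was in C3ar1 alone. GAS (TTCNNNGAA, 8.3%) and ISRE (3.44%) were in none of the 6 windows. The core of the CREB site (TGACG, 20.8%) was in C1qb, and TATAAA (13.6%) was in C3 and C3ar1. These matches describe the letters and do not show binding.

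C4b encodes C4, whose cleavage by the C1 complex carries the classical branch on towards C3. C4b (chromosome 17, 34728380 to 34743882, minus strand) had 47.1, 74.2, 28.8 and 38.7 CPM in transgenic replicates 23, 24, 26 and 27, 23.2, 25.6 and 23.98 CPM in parabiotic replicates 3, 11 and 15, and 345, 290.2 and 277 CPM in microglia replicates 39, 40 and 41. All microglia libraries lay above all CD11c libraries, and all transgenic libraries lay above all parabiotic ones. C4b was 12.5-fold lower in parabiotic cells than in microglia (-3.65 ± 0.31, adjusted p = 1.27e-05) and 6.45-fold lower in transgenic cells than in microglia (-2.69 ± 0.27, adjusted p = 0.00017), and these calls held in all 20 alternatives. Between the CD11c groups it was higher in transgenic cells (0.96 ± 0.27, adjusted p = 0.046), a call that ended in 10 of 20 alternatives (adjusted p = 0.0655 to 0.166 in those), among them 8 of the 10 fits without 1 library, the exceptions being transgenic replicates 26 and 27. With the term for replicates 26 and 27, which leaves 23 and 24 alone to set the transgenic mean, it was 1.32 (adjusted p = 0.00325). The close paralogue C4a, which lies on the same chromosome, had 0 to 10 counts per library, and reads shared by the pair may have been split or dropped in counting.

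Astrocytes are another known source of C4 in the brain, and markers of other cell types were measured beside C4b. Astrocyte markers (9 genes) summed to 31.3 to 67.1 CPM in transgenic, 18.0 to 21.8 CPM in parabiotic and 113 to 192 CPM in microglia libraries, with 4 of 9 lower in parabiotic cells than in microglia, 2 of 9 lower in transgenic cells than in microglia and 3 of 9 higher in transgenic than in parabiotic cells. Slc1a3, a glutamate transporter, carried most of the sum in microglia (12.7 to 45.9 CPM in transgenic, 0 to 2.03 CPM in parabiotic and 89.0 to 151 CPM in microglia libraries). Without it the other 8 markers summed to 15.2 to 21.2 CPM in transgenic and 18.0 to 19.8 CPM in parabiotic libraries, which overlapped, and to 24.5 to 51.6 CPM in microglia. The markers did not move alike: Gfap stood at 4.94 to 6.34 CPM in transgenic, 1.46 to 1.67 CPM in parabiotic and 9.88 to 23.2 CPM in microglia libraries, while Sox9 stood at 0.329 to 1.67, 1.67 to 2.37 and 0.380 to 1.30 CPM in these groups. The 9 markers of border macrophages summed to 606 to 1416 CPM in transgenic, 1048 to 1200.4 CPM in parabiotic and 499 to 594 CPM in microglia libraries. Of these 9, 3 were higher and 3 lower in parabiotic cells than in microglia, 2 were higher and 1 lower in transgenic cells than in microglia, and 0 were called between transgenic and parabiotic cells. Over all genes 17.4% were higher and 17.9% lower in parabiotic cells than in microglia. In transgenic cells against microglia the shares were 8.88% and 4.79%, and against parabiotic cells 7.63% and 2.42%. Lyve1 stood at 0.0253 to 3.80 CPM in transgenic, 0 to 1.03 CPM in parabiotic and 8.61 to 17.6 CPM in microglia libraries, and Ms4a7 ran the other way, at 140 to 376, 330.1 to 586 and 14.0 to 70.8 CPM in these groups. The part of these cells in the C4b difference was not tested.

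C3, the protein on which the branches converge, did not separate the groups. C3 (chromosome 17, 57203970 to 57228136, minus strand) had 67.1, 55.3, 35.4 and 24.6 CPM in transgenic replicates 23, 24, 26 and 27, 48.0, 60.3 and 42.8 CPM in parabiotic replicates 3, 11 and 15, and 31.6, 48.7 and 74.2 CPM in microglia replicates 39, 40 and 41. The ranges overlapped in every comparison, and replicates 26 and 27 were the lowest transgenic libraries. The log2 difference was -0.03 ± 0.37 in parabiotic cells against microglia (95% interval -0.85 to 0.79), -0.17 ± 0.35 in transgenic cells against microglia (-0.94 to 0.59) and -0.14 ± 0.35 between transgenic and parabiotic cells (-0.91 to 0.62). The adjusted p-values were 0.956, 0.76 and 0.862, and the intervals do not exclude changes of up to those bounds. The ratio of C4b to C3 per length accordingly differed, at 0.634 to 1.42 in transgenic, 0.384 to 0.506 in parabiotic and 3.38 to 9.86 in microglia libraries.

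Cfp showed the largest change of the 9 genes. It encodes properdin, which stabilises the C3 convertase of the alternative branch and is known as a product of myeloid cells. Cfp (chromosome X, 20925454 to 20931555, minus strand) had 104, 127, 38.0 and 136 CPM in transgenic replicates 23, 24, 26 and 27, 451, 255 and 362 CPM in parabiotic replicates 3, 11 and 15, and 8.02, 15.4 and 7.88 CPM in microglia replicates 39, 40 and 41. The 3 groups did not overlap, and replicate 26 was the transgenic library nearest to microglia. Cfp was 34.1-fold higher in parabiotic cells than in microglia (5.09 ± 0.50, adjusted p = 2.93e-05) and 9.71-fold higher in transgenic cells than in microglia (3.28 ± 0.45, adjusted p = 0.00112), and these calls held in all 20 alternatives. It was lower in transgenic than in parabiotic cells (-1.81 ± 0.40, adjusted p = 0.014). That call was lost without parabiotic replicate 3 (-1.61, adjusted p = 0.0644) and with the term for replicates 26 and 27 (-1.62, adjusted p = 0.0688). With that term, replicates 23 and 24 alone set the transgenic mean.

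Properdin is also stored by neutrophils. The 12 neutrophil markers summed to 129 to 325 CPM in transgenic, 211 to 1229 CPM in parabiotic and 413 to 492 CPM in microglia libraries, where Csf3r alone reached 410 to 489 CPM. Camp and Ngp were at 0 counts in transgenic libraries, and Ly6g and Retnlg were at 0 counts in microglia. Without Csf3r the other 11 markers summed to 18.5 to 59.6 CPM in transgenic, 74.6 to 1072 CPM in parabiotic and 1.81 to 2.94 CPM in microglia libraries, the same order of groups as for Cfp. Of 8 tested neutrophil markers, 6 were higher and 1 lower in parabiotic cells than in microglia, 1 was higher in transgenic cells than in microglia, and 3 were lower in transgenic than in parabiotic cells. The shares of all genes were 17.4% and 17.9%, 8.88%, and 2.42% in turn. Within the parabiotic group, replicate 11 had the highest neutrophil sum and the lowest Cfp level. The part of neutrophils in the Cfp difference was not tested.

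Cfb, the protease component of the alternative C3 convertase, was near the limit of detection. Cfb (chromosome 17, 34856374 to 34862518, minus strand) had 26, 26, 30 and 11 counts in transgenic replicates 23, 24, 26 and 27, 26, 28 and 29 counts in parabiotic replicates 3, 11 and 15, and 46, 42 and 40 counts in microglia replicates 39, 40 and 41, or 0.613 ± 0.232, 0.826 ± 0.0704 and 1.29 ± 0.0170 CPM (SD, n = 4, 3 and 3). Every CD11c library lay below every microglia library. The difference was -1.07 ± 0.40 in transgenic cells against microglia (adjusted p = 0.0963), -0.64 ± 0.43 in parabiotic cells against microglia (95% interval -1.59 to 0.32, adjusted p = 0.284) and -0.43 ± 0.41 between transgenic and parabiotic cells (-1.33 to 0.47, adjusted p = 0.591). DESeq2's Wald test called the first of these (-1.11, adjusted p = 0.0375). Of the 2825 exonic bases of Cfb, 2246 are shared with the annotated gene Gm20547 on the same strand. Whether reads in that stretch were counted for Cfb was not stated, so its level is uncertain.

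C3ar1 and C5ar1 encode the receptors of the anaphylatoxins C3a and C5a. C3ar1 (chromosome 6, 122847138 to 122856161, minus strand) had 921, 977, 1182 and 763 CPM in transgenic replicates 23, 24, 26 and 27, 896, 1025 and 1009.7 CPM in parabiotic replicates 3, 11 and 15, and 830.0, 946 and 1103 CPM in microglia replicates 39, 40 and 41. All groups overlapped. The difference was 0.03 ± 0.19 in parabiotic cells against microglia, with a 95% interval of -0.38 to 0.43, 0.00 ± 0.17 in transgenic cells against microglia (-0.38 to 0.38) and -0.02 ± 0.17 between transgenic and parabiotic cells (-0.41 to 0.36). None of these intervals reaches beyond -0.41 or 0.43 on the log2 scale (adjusted p = 0.927, 0.996 and 0.958).

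C5ar1 (chromosome 7, 16246743 to 16259540, minus strand) had 471, 526, 520.0 and 386 CPM in transgenic replicates 23, 24, 26 and 27, 358, 399 and 329 CPM in parabiotic replicates 3, 11 and 15, and 429, 542 and 592 CPM in microglia replicates 39, 40 and 41. Parabiotic libraries lay below all microglia libraries and overlapped with transgenic replicate 27. C5ar1 was lower in parabiotic cells than in microglia (-0.53 ± 0.18, adjusted p = 0.0391). The call was lost in 7 of 20 alternatives, among them the fits without any one of the parabiotic libraries, without microglia replicate 40 or 41, or without transgenic replicate 23 (adjusted p = 0.0513 to 0.141). In transgenic cells it stood at -0.13 ± 0.17 against microglia (95% interval -0.50 to 0.23, adjusted p = 0.612) and at 0.39 ± 0.17 against parabiotic cells (0.03 to 0.76, adjusted p = 0.177). Per length, C3ar1 exceeded C5ar1 in all libraries, 1.11- to 1.36-fold in transgenic, 1.49- to 1.83-fold in parabiotic and 1.04- to 1.16-fold in microglia libraries, and the parabiotic range lay apart from both others.

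Across the 10 libraries, which share the differences between the 3 groups, log2 levels of the C1q chains ran together (Pearson r = 0.96 to 0.99) and opposite to Cfp (-0.89 to -0.90). C4b also ran opposite to Cfp (-0.90), and C3ar1 followed no other member beyond 0.51. Over 8794 other genes with at least 10 CPM in the highest group, the genes with the pattern most like the mean of the C1q chains were Maf (r = 0.988), Hes1 (0.985) and Abhd12 (0.984). Maf stood at 81.6 CPM in transgenic, 39.3 CPM in parabiotic and 123 CPM in microglia libraries on average. For C4b they were Slc12a9 (0.986), Mgat1 (0.980) and Mertk (0.979), the last a receptor for apoptotic cells, at 331, 221 and 684 CPM. For Cfp they were Ltb4r1 (0.993), a leukotriene B4 receptor, Pirb (0.992) and Plscr1 (0.991). Ltb4r1 stood at 7.14 CPM in transgenic, 22.7 CPM in parabiotic and 0.299 CPM in microglia libraries. The closest genes were Dpp9 (0.978), Brd8 and Map3k10 for C3, Daxx (0.966), Dhx58 and Trim34a for Cfb, Taf6 (0.942), Cd22 and Dpp7 for C3ar1, and Rfwd3 (0.954), Tnfaip1 and Pelp1 for C5ar1. With 10 libraries and so many candidates, high values arise for any profile, and no p is given.

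Of 58 further genes of the complement pathway and of C1q-related proteins, 48 were in the table and 28 could be tested. Parabiotic cells had 9 of the 28 lower and 4 higher than microglia, with 15 not called, beside 17.9% and 17.4% of all genes. Transgenic cells had 5 lower and 4 higher than microglia, with 19 not called, beside 4.79% and 8.88%. The higher genes in both comparisons were Itgax, Cd93 and the C1q-related C1qtnf6 and C1qtnf12. Itgax drives the reporter of the sort, so its place in these counts is a property of the sort. Transgenic against parabiotic cells had 5 higher, 1 lower and 22 not called, beside 7.63% and 2.42%. Their medians in the 3 comparisons in turn were -0.51, -0.40 and 0.06, against -0.02, 0.02 and 0.04 over all genes. Genes of the terminal pathway, which forms the membrane attack complex, were nearly absent from these cells: of 7 listed, 5 were in the table and C8g alone could be tested, with no call in any comparison.

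Among genes that act before C3, Masp1, a protease of the lectin branch, averaged 7.83 ± 4.09 CPM in transgenic (n = 4), 0.130 ± 0.179 CPM in parabiotic (n = 3) and 15.0 ± 7.36 CPM in microglia libraries (SD, n = 3). It was lower in parabiotic cells than in microglia (-6.82 ± 0.93, adjusted p = 0.000231) and higher in transgenic than in parabiotic cells (5.88 ± 0.89, adjusted p = 0.00188), both in all 20 alternatives, and was not called in transgenic cells against microglia (-0.94 ± 0.61). C2, which C4b requires as its partner in the classical C3 convertase, averaged 1.41 ± 0.693, 0.260 ± 0.226 and 5.70 ± 2.53 CPM in these groups and was lower in parabiotic cells than in microglia (-4.44 ± 0.73, adjusted p = 0.0008). It was also called lower in transgenic cells than in microglia (-2.01 ± 0.57, adjusted p = 0.0409) and higher in transgenic than in parabiotic cells (2.43 ± 0.68, adjusted p = 0.0434), but these calls were lost in 8 and 10 of 19 alternatives (adjusted p = 0.0506 to 0.169 and 0.0615 to 0.172), among them the fits without microglia replicate 40 or 41, parabiotic replicate 3, or transgenic replicate 23 or 24. C2 shares 1656 exonic bases with Gm20547, the gene with which Cfb shares 2246, and 161 with Zbtb12 on the opposite strand. Colec12, a scavenger receptor of the collectin family, was at 45.1 ± 18.8, 9.92 ± 0.521 and 26.1 ± 10.2 CPM. It was lower in parabiotic cells than in microglia (-1.40 ± 0.36, adjusted p = 0.0117, but 0.0504 without microglia replicate 40) and higher in transgenic than in parabiotic cells (2.19 ± 0.36, adjusted p = 0.00289).

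Of the regulators, Cd55, which dissociates C3 convertases, had 14 counts in all transgenic libraries, 9 in all parabiotic libraries and 113 in all microglia libraries, and its calls (-3.61 ± 1.21 in parabiotic and -3.61 ± 1.07 in transgenic cells against microglia, adjusted p = 0.0377 and 0.0467) were lost in 5 and 10 of 19 alternatives (adjusted p = 0.0637 to 0.155 and 0.0501 to 0.211), among them in both cases the fits without any one microglia library or without parabiotic replicate 3 or 15. Cr1l (Crry, the main membrane regulator of C3 in mice) was not called in any comparison, at 68.3 ± 11.8 CPM in transgenic (n = 4), 60.3 ± 4.35 CPM in parabiotic (n = 3) and 59.2 ± 4.45 CPM in microglia libraries (SD, n = 3).

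Receptors that bind C3 fragments went different ways. Itgam, the alpha chain of complement receptor 3, stood at 394 ± 44.3 CPM in transgenic (n = 4), 222 ± 16.7 CPM in parabiotic (n = 3) and 676 ± 19.5 CPM in microglia libraries (SD, n = 3), with no overlap. It was lower in parabiotic cells (-1.61 ± 0.15, adjusted p = 1.99e-05) and in transgenic cells (-0.78 ± 0.14, adjusted p = 0.00431) than in microglia, and higher in transgenic than in parabiotic cells (0.83 ± 0.14, adjusted p = 0.00337). Its partner chain Itgb2 was not called in any comparison (-0.20 ± 0.14 in parabiotic cells against microglia). Itgax, the alpha chain of complement receptor 4, was higher in both CD11c groups than in microglia (3.50 ± 0.51 in parabiotic and 2.34 ± 0.47 in transgenic cells, adjusted p = 0.000346 and 0.00871). It drives the reporter by which those cells were sorted, so its difference is a property of the sort. Vsig4, a macrophage receptor for C3b, had 20 counts in all transgenic, 6 in all parabiotic and 250 in all microglia libraries, and was lower in parabiotic cells (-5.30 ± 1.13, adjusted p = 0.00406) and in transgenic cells (-4.25 ± 0.92, adjusted p = 0.0127) than in microglia, the second call ending without microglia replicate 39 or 40 (adjusted p = 0.0626 and 0.0632). Microglia replicates 39 and 40 held 3.28 and 3.38 CPM of Vsig4 and replicate 41 held 0.760 CPM.

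Cd93, a C-type lectin family receptor once described as a receptor of C1q, moved furthest upward, at 141 ± 62.9 CPM in transgenic (n = 4), 353 ± 53.9 CPM in parabiotic (n = 3) and 8.94 ± 2.45 CPM in microglia libraries (SD, n = 3). It was higher in parabiotic cells (5.30 ± 0.48, adjusted p = 1.68e-05) and in transgenic cells (3.98 ± 0.44, adjusted p = 0.000304) than in microglia, and was called lower in transgenic than in parabiotic cells (-1.32 ± 0.37, adjusted p = 0.0436), a call lost in 11 of 20 alternatives (adjusted p = 0.0518 to 0.15), including every fit without 1 library other than transgenic replicate 26 or 27. Cd93 is also an endothelial gene. The endothelial markers (8 genes) summed to 19.2 to 42.3 CPM in transgenic, 30.0 to 40.9 CPM in parabiotic and 45.5 to 49.8 CPM in microglia libraries. In parabiotic cells against microglia 0 of 8 were higher and 1 lower, beside 17.4% and 17.9% of all genes. The part of endothelial cells in the Cd93 difference was not tested. Calr (calreticulin), which binds C1q at the cell surface, was lower in parabiotic cells than in microglia (-0.48 ± 0.16, adjusted p = 0.0397), a call lost in 7 of 20 alternatives (adjusted p = 0.0531 to 0.14), among them the fits without any one parabiotic library, microglia replicate 40 or 41, or transgenic replicate 23. The C1q-related genes C1qtnf6 and C1qtnf12 were higher in parabiotic cells (4.81 ± 0.61 and 1.89 ± 0.32, adjusted p = 0.000151 and 0.000877) and in transgenic cells (3.61 ± 0.58 and 1.26 ± 0.30, adjusted p = 0.00282 and 0.0196) than in microglia, with means of at most 6.51 CPM in any group. The call of C1qtnf12 in transgenic cells was lost in 3 of 20 alternatives (adjusted p = 0.0533 to 0.122), 2 of them the fits without microglia replicate 39 or 40.

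**Figure D4:**
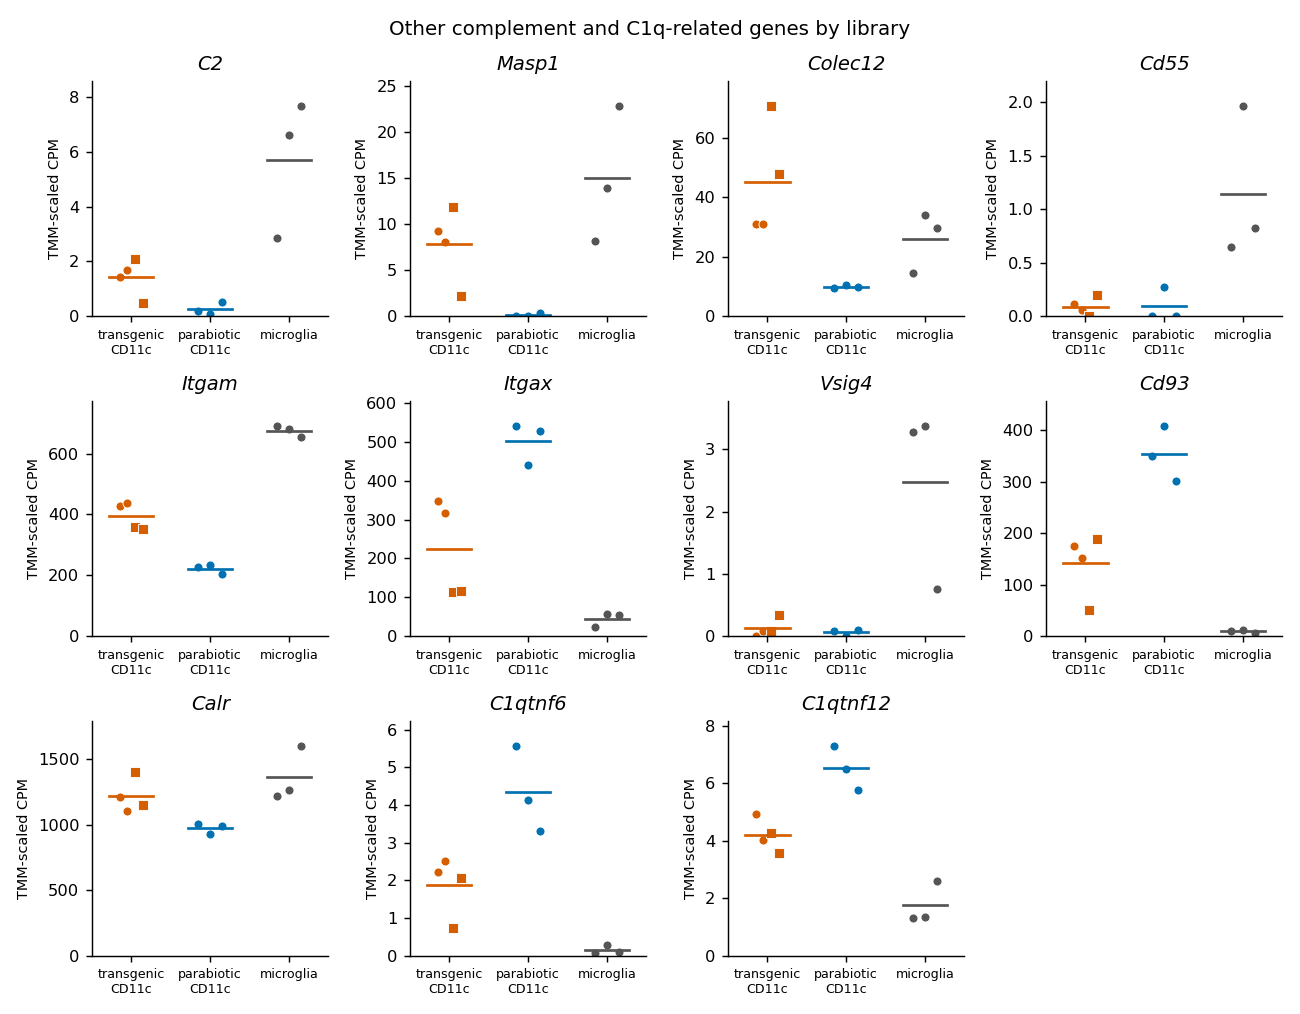
TMM-scaled CPM (vertical axes, linear and starting at 0) of 11 further complement and C1q-related genes called in at least 1 comparison with a mean of at least 1 CPM in the highest group. Points are libraries, squares are transgenic replicates 26 and 27, and bars are group means. Itgam lies between the other groups in transgenic cells, lowest in parabiotic cells and highest in microglia, without overlap, while Cd93, C1qtnf6 and C1qtnf12 are highest in parabiotic cells.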

How the data were processed

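For each of 10 libraries the authors deposited raw counts by Ensembl gene. Per the labels' protocols, total RNA (1 or 5 ng) was converted to cDNA with a template-switching kit and amplified for 11 or 9 PCR cycles, so counts are not independent molecules. Per the submitters' processing notes, FastQC 0.11.5, STAR 2.5.3a, DESeq2 and GRCm38 were used. No source used here gives the counting program, its annotation, strand setting or handling of shared reads. Symbols, coordinates and union exon lengths came from GENCODE M21 (GRCm38), which held 28492 of 28585 identifiers.

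Genes were filtered with filterByExpr by group (15151 kept), scaled with TMM and tested in 1 fit of all 10 libraries (1 mean per group) by edgeR 4.0.16 (quasi-likelihood F test, R 4.3.3), robust dispersion, threshold 0.05 after Benjamini-Hochberg adjustment. The fit was also run on simulated counts that gave all genes the same dispersion, unlike these data, so that run does not bear on the accuracy of the calls here. SEs are the absolute log2 fold change over the root of F, and 95% intervals use the test's degrees of freedom. Over all genes the common biological coefficient of variation was 0.317. For genes with many counts, spread between libraries, more than depth, thus set the precision. With few counts, as for Cfb, C2, Cd55 and Vsig4, depth limited it as well. CPM are TMM-scaled, TPM are scaled per library, and correlations used log2(CPM + 1).

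The 9 genes and all lists were chosen with earlier results of these data known. Named further are complement genes called in at least 1 comparison with at least 1 CPM in the highest group (C2, Masp1, Colec12, Cd55, Itgam, Itgax, Vsig4, Cd93, Calr, C1qtnf6 and C1qtnf12) and, for each member (the C1q chains as 1 mean), the 3 genes with the highest correlation, without predicted or clone symbols. Some genes of the lists count in their totals but are not reported here by name. C4a, C8g, Cr1l, Itgb2 and single marker genes were named after their values were seen. Alternatives were RLE and upper quartile scaling, DESeq2 1.42.0, limma-voom (limma 3.58.1), no or a stricter filter (5 CPM or more in 3 or more libraries), fits of the compared groups alone, a term for transgenic replicates 26 and 27 (their library numbers lie apart, and no label says what that number marks), non-robust dispersion and each library left out. The term applies to transgenic libraries only, so with it replicates 23 and 24 alone set the transgenic mean, and it does not adjust the other groups. Transgenic replicates 26 and 27 were also left out together, chosen after seeing the data. The marker lists not described in the report (monocyte, oligodendrocyte, neuron, T cell and B cell) had 6 of 8, 1 of 7, 0 of 4, 0 of 2 and 2 of 6 tested members higher in parabiotic cells than in microglia, and 0, 1, 4, 0 and 0 lower. Of all genes 17.4% were higher and 17.9% lower there.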

Additional observations from a re-analysis of the deposited data

Results flagged for a closer look

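Cfb in transgenic replicate 27 stood apart from the other transgenic libraries. It had 0.268 CPM (11 counts), against 0.701 to 0.759 CPM in replicates 23, 24 and 26, and its gap to the nearest of these took a share of 0.882 of the group's range, above Dixon's 95% critical value for 4 libraries. Of the 9 genes tested this way in that group, the other 8 stayed under the value.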

How the results depend on the processing

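No paired analysis was possible because the groups share no replicate numbers. Of 240 counts of calls under an alternative, 202 stayed within 1.5 times the count reported and 38 did not. Of 537 values of single members, 501 kept their direction where called and their side of the threshold, 35 lost a call, 1 gained one and 0 turned round. Leaving out 1 library gave 3 to 5 members lower in parabiotic cells than in microglia (5 reported), and between transgenic and parabiotic cells 0 to 3 members higher (3) and 0 to 1 lower (1). Members higher in either CD11c group than in microglia (1) and lower in transgenic cells than in microglia (1) did not vary there. Among the 28 further genes, the same fits gave 5 to 11 lower (9) and 4 to 5 higher (4) in parabiotic cells than in microglia, 1 to 4 lower (5) and 3 to 6 higher (4) in transgenic cells than in microglia, and 4 to 5 higher (5) and 0 to 1 lower (1) in transgenic than in parabiotic cells. With only the 2 groups compared, 0 members were higher in transgenic than in parabiotic cells, and 0 further genes were lower. With the term for transgenic replicates 26 and 27, 0 members and 0 further genes were lower in transgenic than in parabiotic cells, and 3 further genes were lower in transgenic cells than in microglia. DESeq2 gave 2 members lower in transgenic cells than in microglia and 3 further genes lower in transgenic than in parabiotic cells. In that last count no filter gave 0, and leaving out transgenic replicates 26 and 27 together, chosen after seeing the data, gave 3. The stricter filter gave 5 further genes lower in parabiotic and 3 in transgenic cells than in microglia. It left no value for Cfb, since Cfb did not pass it. The cause of the other changes was not tested.

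Over all genes, leaving out 1 library moved the calls in parabiotic cells against microglia to 3747 to 6458 (5347 reported), in transgenic cells against microglia to 746 to 2684 (2070, lowest without microglia replicate 39) and in transgenic against parabiotic cells to 830 to 2510 (1523, lowest without parabiotic replicate 3 and highest without transgenic replicate 27). Leaving out replicates 26 and 27 together gave 8334, 2417 and 3482. In transgenic cells against microglia 3437 genes were called by DESeq2, 1303 with the term for replicates 26 and 27, and 1229 in the fit of only 2 groups. In transgenic against parabiotic cells DESeq2 gave 2419 and the fit of only 2 groups 999. Cfb, with 11 to 46 counts a library, is the member most limited by depth.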
